A study of Mus musculus with 11 samples.

Results

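The E14 line of mouse embryonic stem (ES) cells was sequenced as a parental culture without a transgene and as SDY7 cultures that carry a BRE reporter, a transgene read out through BMP response elements. These were 4 of the 11 libraries of a study of the BMP pathway in 3 cell lines, and all 4 were taken: 1 parental culture, 1 reporter culture with 2 technical runs (culture 1) and a second reporter culture (culture 2). All were labelled with the strain 129/Ola and grown on gelatin in serum with LIF, so the medium was common to both groups, and the labels name no BMP treatment of any of these cultures. The labels do not say whether SDY7 is 1 clone or a pool, nor at what passage either group was taken. With a single parental culture, the reporter transgene, any cloning step and the history of that culture cannot be told apart, and both reporter differences below share that culture.

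Mouse ES cells in serum and LIF are a mixture of states. LIF acts through STAT3 to sustain transcription factors of the naive state such as Klf4 and Tfcp2l1, BMP signals through SMAD proteins to Id genes, and cells that move towards the formative or primed state switch on genes such as Pou3f1 and Dnmt3b. A rare and transient state of ES cultures resembles the 2-cell embryo and expresses the Zscan4 gene cluster, which is known for its role in telomere maintenance.

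Values are FPKM, fragments scaled to transcript length and to the mapped fragments of the library, so that levels can be compared between genes. The general ES genes were high in all 4 libraries: Pou5f1, the core pluripotency factor, stood at 1027 FPKM in the parental culture, at 1095 and 1103 FPKM in the runs of culture 1 and at 1133 FPKM in culture 2. Sox2, its partner, ranged from 267 to 304 FPKM. Defining fibroblast genes were near 0, with Col1a1 between 0.251 and 0.374 FPKM and Postn at 0 in all but culture 2, where it was 0.011 FPKM. Over the whole list of 20 fibroblast and feeder genes the summed level was 71.2 FPKM in the parental culture, 94.2 FPKM in culture 1 and 60.9 FPKM in culture 2, most of it Vim, which ES cells also express. The parental library and culture 1 belong to the same run of library numbers and culture 2 to a later one. The share of FPKM on short RNA genes was 5.62% in culture 2, against 18.0% to 19.7% in the other ES libraries. This low share was not particular to culture 2. In the NMuMG mammary epithelial line the later series had 5.48% (parental) and 5.66% (reporter). The first NMuMG series had 12.3% (parental) and 14.3% (reporter). The difference of culture 1 from the parental culture is therefore the value within 1 library series.

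The members of the Zscan4 cluster on chromosome 7 head the genes that are lower in the reporter cultures. The 250 bases before the annotated start of the 4 copies matched in the RefSeq promoter table used here (build GRCm38.p6) are shown to make visible how alike the copies are, with the longest stretch shared by all 4, of 48 bases, in capitals.
Zscan4b (chr7:10905051-10905300, minus strand): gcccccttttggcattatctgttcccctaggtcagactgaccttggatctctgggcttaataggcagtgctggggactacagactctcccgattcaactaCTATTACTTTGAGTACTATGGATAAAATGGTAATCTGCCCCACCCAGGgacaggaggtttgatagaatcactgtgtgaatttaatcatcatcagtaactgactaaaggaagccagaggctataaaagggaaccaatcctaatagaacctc
Zscan4c (chr7:11005495-11005744, plus strand): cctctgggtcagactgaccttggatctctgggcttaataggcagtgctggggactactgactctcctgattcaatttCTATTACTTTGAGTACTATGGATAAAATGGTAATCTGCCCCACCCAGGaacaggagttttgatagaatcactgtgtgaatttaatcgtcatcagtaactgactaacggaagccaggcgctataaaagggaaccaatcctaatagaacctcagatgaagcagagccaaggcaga
Zscan4d (chr7:11166149-11166398, minus strand): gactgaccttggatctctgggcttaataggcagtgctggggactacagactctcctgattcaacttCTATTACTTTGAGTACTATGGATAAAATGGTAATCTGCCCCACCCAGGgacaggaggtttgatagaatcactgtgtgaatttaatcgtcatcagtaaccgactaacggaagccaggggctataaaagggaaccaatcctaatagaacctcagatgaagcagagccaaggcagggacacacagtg
Zscan4f (chr7:11397665-11397914, plus strand): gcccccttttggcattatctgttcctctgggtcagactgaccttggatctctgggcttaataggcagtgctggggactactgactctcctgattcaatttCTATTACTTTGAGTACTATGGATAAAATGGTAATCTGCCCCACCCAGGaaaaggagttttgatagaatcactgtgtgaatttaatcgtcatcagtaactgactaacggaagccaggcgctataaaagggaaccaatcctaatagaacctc
At their best ungapped offset the windows of Zscan4c and Zscan4f had 226 of 227 bases in common (99.6%), and the least alike pair, Zscan4b and Zscan4c, 215 of 227 (94.7%). Reads from such copies are hard to assign, so the levels of single copies are uncertain and the cluster is best read as a whole.

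Pim2 and Gadd45g carry the octamer, the 8-base motif that POU factors such as Pou5f1 and Pou3f1 are known to bind, searched as ATGCAAAT on both strands and shown in capitals.
Pim2 (chrX:7878056-7878305, plus strand): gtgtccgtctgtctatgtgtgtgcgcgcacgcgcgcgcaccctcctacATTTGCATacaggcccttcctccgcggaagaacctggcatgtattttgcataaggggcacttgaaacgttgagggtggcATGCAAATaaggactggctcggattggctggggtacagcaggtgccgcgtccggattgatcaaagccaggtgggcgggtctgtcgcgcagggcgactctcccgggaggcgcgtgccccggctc
Gadd45g (chr13:51846425-51846674, plus strand): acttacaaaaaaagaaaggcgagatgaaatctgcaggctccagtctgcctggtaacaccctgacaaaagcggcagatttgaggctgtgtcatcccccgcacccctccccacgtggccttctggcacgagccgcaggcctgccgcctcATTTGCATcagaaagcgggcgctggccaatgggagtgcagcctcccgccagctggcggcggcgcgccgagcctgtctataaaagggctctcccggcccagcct
Pim2 held 2 matches and Gadd45g 1. The motif stood in 1.60% of the 32851 windows of the RefSeq table. Among windows of genes tested here it stood in 147 of 11618 (1.27%), among those of genes at least 2-fold lower in both reporter cultures in 7 of 170 (4.12%), and among those of genes at least 2-fold higher in 2 of 99 (2.02%). Those counts are small, a gene can have several windows, and a match is a run of letters, not a shown binding site. The windows of the lower genes also held fewer CpG pairs, with a median of 7 against 16 over all genes tested and 17 in the higher genes. On the side of the higher genes, the first of the Esrrb windows held the STAT motif TTCNNNGAA, which reads the same on both strands and is shown in capitals.
Esrrb (chr12:86360867-86361116, plus strand): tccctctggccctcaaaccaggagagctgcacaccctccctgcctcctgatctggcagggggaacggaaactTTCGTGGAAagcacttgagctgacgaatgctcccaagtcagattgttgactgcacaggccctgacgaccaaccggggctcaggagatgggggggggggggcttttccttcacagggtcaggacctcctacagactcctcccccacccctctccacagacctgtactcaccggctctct
The STAT motif stood in 7.02% of all windows, in 5.81% of those of genes tested, in 4 of 99 (4.04%) of those of higher genes and in 10 of 170 (5.88%) of those of lower genes. The second Esrrb window and those of Klf4, Tfcp2l1 and Gbx2 held none. The GC-rich SMAD box GGCGCC, searched on both strands, stood in 9.59% of all windows and 16.9% of those of genes tested, against 17.2% for higher and 14.7% for lower genes.

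Over the 12277 genes tested, both reporter cultures were at least 2-fold above the parental culture for 116 genes (0.945%) and at least 2-fold below it for 193 genes (1.57%), 309 in all (2.52%). Taken alone, culture 1 was 2-fold higher for 314 genes and lower for 388, and culture 2 higher for 305 and lower for 468. Both cultures moved 2-fold in opposite directions for 14 genes. Whatever the size of the shift, both were above the parental culture for 3667 of the 12277 genes and below it for 4243. The technical runs of culture 1 gave the noise scale: they set 43 genes at least 2-fold apart, and their difference had an SD of 0.306 on the log2(FPKM + 1) scale used for all differences here. The SD of the difference from the parental culture was 0.574 for culture 1 and 0.716 for culture 2. Both reporter cultures differed from each other about as much, with an SD of 0.704 and 595 genes at least 2-fold apart. For 300 of the 309 shared genes the smaller of both shifts was larger than the gene's own difference between runs, and for 301 it lay beyond the 99th percentile of run differences at that expression level. Both counts follow largely from the 2-fold limit, since that percentile was only 0.313 to 0.510 at the levels below 100 FPKM. The 99th percentile of the difference between both reporter cultures was 1.10 to 1.83 at those levels and 10.5 above them. Just inside the 2-fold limit stood Prelid2, at 1.77 and 1.00, and just outside it Klf5, at 0.996 and 0.998.

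**Figure D1:**
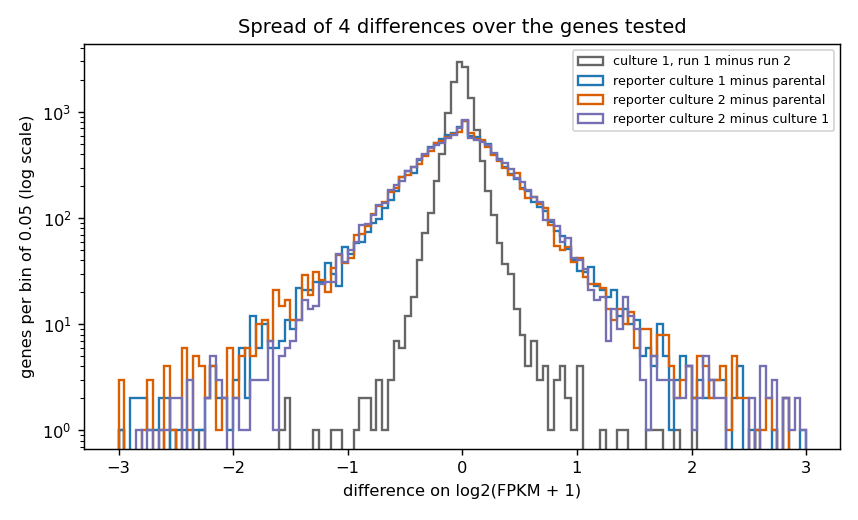
Number of tested genes (y, log scale) by difference on the log2(FPKM + 1) scale (x) between the runs of reporter culture 1, between each reporter culture and the parental culture, and between both reporter cultures. The run difference, with an SD of 0.306, is the narrowest, and the other 3 differences have SDs of 0.574 to 0.716; differences beyond 3 either way are outside the plot.

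limma, which takes the missing spread of the lone parental culture from the reporter pair and from parental and reporter cultures of the NMuMG mammary epithelial line, called 0 genes higher and 12 genes lower (0.0977% of the genes tested) at an adjusted p under 0.05 and at least 2-fold. The 12 genes that fell were Zscan4b, Zscan4d, Zscan4e, Gm8300, Pim2, Gadd45g, Pou3f1, Aass, Car4, Liph, Mup6 and Adck5. Of these, Car4 and Mup6 were listed at 0 in every NMuMG culture. Aass, Liph, Gm8300 and the Zscan4 copies were at most at 0.354 FPKM there. For such genes the spread comes largely from values near the floor. Their p-values do not measure how a parental culture varies at its own, higher level. Without adjustment, 166 genes were higher and 248 lower at p under 0.05 and at least 2-fold. Adjusted p-values of the called genes lay between 0.0331 and 0.0431, close to the threshold, and the lowest among the higher genes was 0.0544. When the library series was added to the model as a term, 0 genes were called either way, with adjusted p-values of 0.0764 to 0.0957 for these 12. Single libraries decide the count: without reporter culture 1 it was 68 higher and 130 lower, without reporter culture 2 it was 71 and 114, without either NMuMG parental culture 0 and 1, and without either NMuMG reporter culture 0 and 0. All 12 kept a negative difference in each of these fits, which was largely fixed in advance. Leaving out an NMuMG culture cannot change the ES difference of a gene. All 12 were also at least 2-fold lower in each reporter culture alone, and every fit holds the same parental culture. A test of the reporter difference in ES cells against that in NMuMG cells called 3 of 12277 genes (0.0244%) and none of the 12, whose adjusted p-values there ran from 0.0503 to 0.131. No change among the 12 is therefore shown to differ from that in NMuMG cells.

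**Figure D2:**
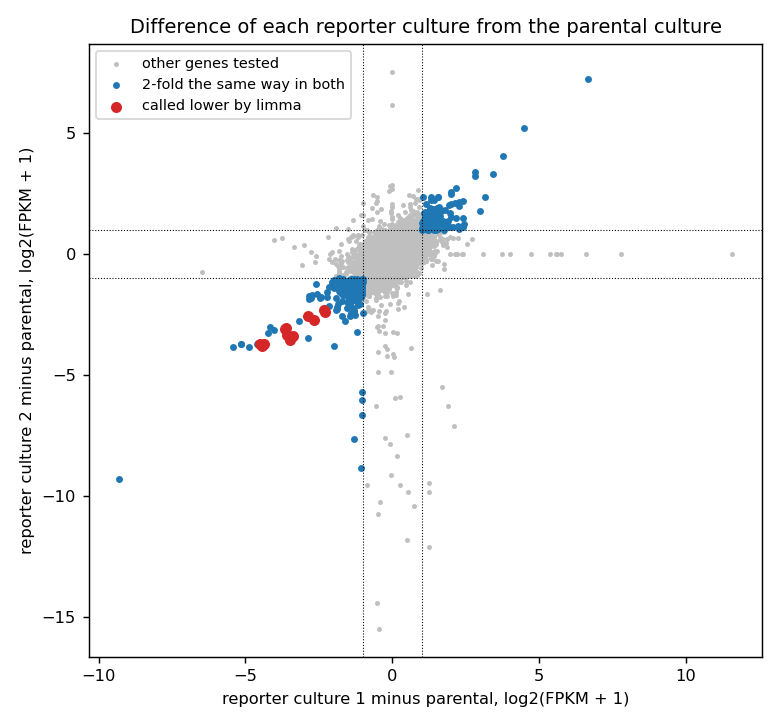
Difference of reporter culture 1 (x) and reporter culture 2 (y) from the shared parental culture for each of 12277 tested genes, log2(FPKM + 1). Dotted lines mark 2-fold, blue points the 309 genes beyond it the same way in both cultures and red points the 12 genes called lower by limma, which all sit in the lower left; points along an axis far from the centre include genes listed at 0 in a library.

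Zscan4d, a marker of the 2-cell-like state, stood at 28.0 FPKM in the parental culture, at 0.385 and 0.267 FPKM in the runs of culture 1 and at 1.09 FPKM in culture 2. All 3 reporter libraries lay far below the parental library, 85.8-fold in culture 1 and 25.7-fold in culture 2, and the fitted log2 difference was -4.12 ± 0.33 (SE; limma adjusted p = 0.0331). Zscan4d reached the 1 FPKM that the filter asks for only in the parental culture and culture 2. Like Pim2 and Gadd45g, it is a marker given for these cultures with results known. The p-values of these markers are therefore no independent support. In a bulk culture, fewer cells in this state and less RNA per cell cannot be told apart.

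Zscan4f, the highest copy in the parental culture, was listed at 48.7 FPKM there, 0.792 and 0.562 FPKM in culture 1 and 2.45 FPKM in culture 2. Its difference of -4.37 ± 0.45 missed the threshold (limma adjusted p = 0.0615). Zscan4b had 26.5 FPKM in the parental culture, 0.280 and 0.385 FPKM in culture 1 and 1.08 FPKM in culture 2. Each of the 5 tested copies was higher in culture 2 than in culture 1 and far below the parental level in both.

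Of 32 genes of the 2-cell-like list in the tables, 10 were tested, 9 were at least 2-fold lower in both cultures and 4 were called lower. The median difference of these 10 tested members was -3.89, with -0.01 over all genes tested, of which 1.57% were 2-fold lower in both. The others did not pass the filter, which asks for 1 FPKM in at least 2 of 7 replicates and so cannot pass a gene that is on in the parental culture alone. Among these, Zscan4a stood at 27.5 FPKM in the parental culture and between 0.375 and 0.960 FPKM in the reporter libraries. Dux, the transcription factor known to switch this programme on, stood at 1.58 FPKM in the parental culture and between 0.020 and 0.249 FPKM in the reporter libraries. Usp17le, a deubiquitinase gene, stood at 4.57 FPKM in the parental culture and between 0.108 and 0.652 FPKM in the reporter libraries. Tcstv1, a gene of the 2-cell stage, stood at 5.01 FPKM in the parental culture at 0 and 0.0548 FPKM in the runs of culture 1, and was listed at 0 in culture 2. These 4 are examples of the untested members, of which 3 (Arg2, Gm4340 and Tmem72) were listed at 0 in all 4 libraries. Of the tested members, 5 are Zscan4 copies, so the count is not one of separate genes. These copies, Gm2016, Gm5662 and Gm8300 passed the filter only through the parental culture and culture 2, at 1.03 to 2.45 FPKM in the latter. The count and the median thus rest on members picked partly by their parental level and are no test of the list. The exception among the tested members was Eif1a, a translation initiation factor gene, at 103 FPKM in the parental culture, 74.7 and 73.9 FPKM in culture 1 and 109 FPKM in culture 2. With a filter of 1 FPKM in at least 1 replicate, limma called 18 genes higher and 105 lower over all genes.

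**Figure D3:**
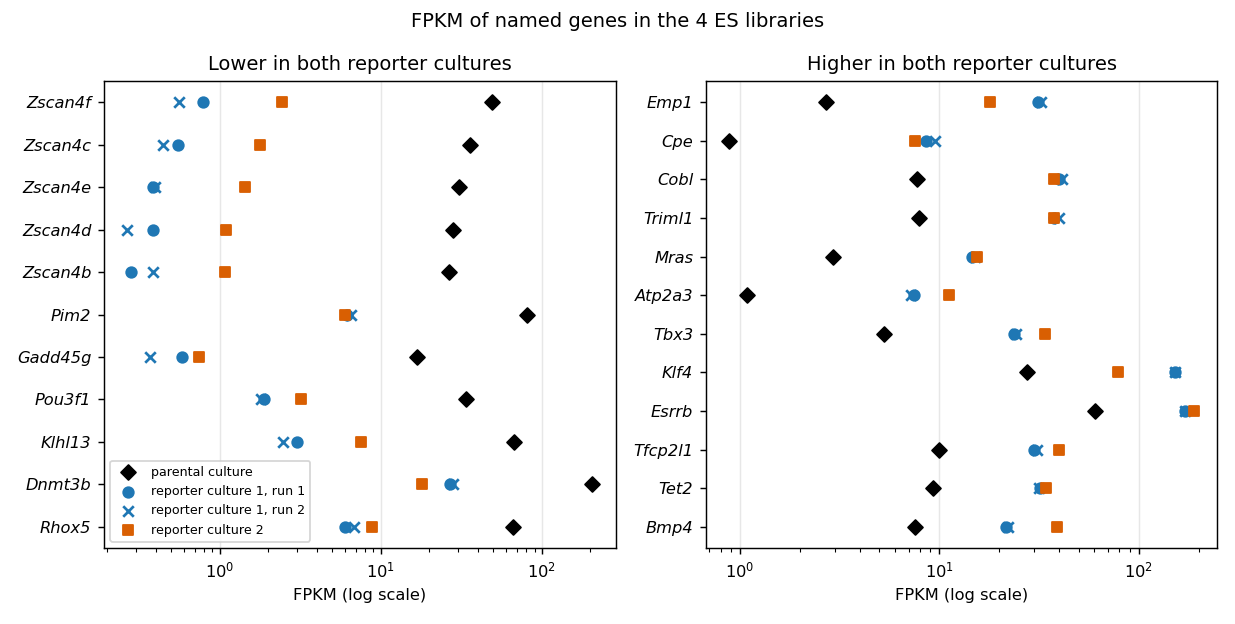
FPKM (x, log scale) of 11 genes lower and 12 genes higher in both reporter cultures, 1 point per library. The genes shown were picked from those at least 2-fold apart from the parental culture in both reporter cultures. The black parental point therefore lies outside the range of the 3 reporter points by selection. The runs of culture 1 (blue) lie close together.

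Pim2, a survival kinase of the PIM family, was the most abundant of the called genes: it stood at 80.4 FPKM in the parental culture, 6.12 and 6.56 FPKM in culture 1 and 5.99 FPKM in culture 2. The 3 reporter libraries were nearly level and 12.7-fold and 13.4-fold lower, a fall of 3.51 ± 0.26 on the log2 scale (limma adjusted p = 0.0331). The other members of its family did not share this. Pim1 stood at 40.8 FPKM in the parental culture, 32.6 and 36.1 FPKM in culture 1 and 26.6 FPKM in culture 2. Pim3 stood at 60.96 FPKM in the parental culture, 113 and 114 FPKM in culture 1 and 93.9 FPKM in culture 2.

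Gadd45g, a growth arrest and stress gene, was at 16.9 FPKM in the parental culture, 0.583 and 0.367 FPKM in culture 1 and 0.744 FPKM in culture 2. It fell by 3.48 ± 0.25 on the log2 scale (limma adjusted p = 0.0331), to under 1 FPKM in each reporter library. Its paralogues stood apart from it: Gadd45a was at 54.5 FPKM in the parental culture, 40.7 and 41.2 FPKM in culture 1 and 54.7 FPKM in culture 2. Gadd45b was between 7.11 and 8.05 FPKM in all 4 libraries. In NMuMG cells Gadd45g was at 22.3 and 28.6 FPKM in the parental and at 38.6 and 36.4 FPKM in the reporter cultures. Over the p53 and growth arrest list of 24 tested genes, 0 were 2-fold higher and 2 were 2-fold lower in both cultures. These 2 were Gadd45g and the cell-cycle inhibitor Cdkn1c. The shares over all genes tested were 0.945% and 1.57%. By any amount, 3 of the 24 were higher and 13 lower in both, against 3667 and 4243 of all 12277.

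Aass, a lysine-degrading enzyme, was at 14.4 FPKM in the parental culture, 1.498 and 1.303 FPKM in culture 1 and 1.32 FPKM in culture 2. It fell by 2.70 ± 0.18 on the log2 scale, with limma adjusted p = 0.0331. Car4, a membrane carbonic anhydrase, was at 11.9 FPKM in the parental culture, 1.70 and 1.56 FPKM in culture 1 and 1.42 FPKM in culture 2. Liph, a membrane lipase, was at 15.7 FPKM in the parental culture, 2.34 and 2.28 FPKM in culture 1 and 2.42 FPKM in culture 2. Reporter libraries agreed closely for all 3 genes, which were picked out because limma called them, as was Mup6. Mup6 belongs to the major urinary protein family, whose copies share reads, and its level is uncertain. Adck5, a gene of the ADCK family of putative kinases, was at 9.47 FPKM in the parental culture and listed at 0 in each reporter library, but its entry overlaps that of Cpsf1, and such a 0 can be a failed assignment of reads.

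Of 17 tested genes of the formative and primed states, 11 were lower and 2 higher in both cultures (4243 and 3667 of all 12277). At least 2-fold, 0 were higher and 8 lower in both (0.945% and 1.57% of all genes tested). The median difference was -1.20. The 2 called were Pou3f1 and Pim2, and Pim2 is a marker given for these cultures with results known that also counts in the LIF and STAT3 list. Pou3f1, a POU factor that marks cells leaving the naive state, stood at 33.8 FPKM in the parental culture, 1.88 and 1.82 FPKM in culture 1 and 3.19 FPKM in culture 2. It fell by 3.33 ± 0.29 on the log2 scale (limma adjusted p = 0.0431). Dnmt3b, a de novo DNA methyltransferase, stood at 206 FPKM in the parental culture, 26.7 and 28.2 FPKM in culture 1 and 18.0 FPKM in culture 2. Its difference of -3.15 ± 0.31 missed the threshold (limma adjusted p = 0.0576). The libraries did not overlap, but Dnmt3b was named for being at least 2-fold lower in both cultures, so this follows from the choice.

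Lef1, a Wnt-responsive transcription factor, stood at 17.1 FPKM in the parental culture, 6.93 and 6.75 FPKM in culture 1 and 0.961 FPKM in culture 2. Sox3 stood at 4.58 FPKM in the parental culture and between 1.08 and 1.51 FPKM in the reporter libraries. Cldn6, a tight junction claudin, stood at 44.1 FPKM in the parental culture and between 16.1 and 18.8 FPKM in the reporter libraries. All these were at least 2-fold lower in both cultures. Otx2, a transcription factor that drives exit from the naive state, was below the parental level in each library but short of 2-fold in culture 2: it stood at 29.4 FPKM in the parental culture, 6.37 and 6.12 FPKM in culture 1 and 23.1 FPKM in culture 2. Foxd3, at 19.8 FPKM in the parental culture, 14.5 and 13.6 FPKM in culture 1 and 45.4 FPKM in culture 2, lay on opposite sides of the parental level. The 2 members above it in both cultures were Tcf15 and Dusp6. Tcf15, a transcription factor gene, stood at 70.5 FPKM in the parental culture, 137 and 138 FPKM in culture 1 and 167.5 FPKM in culture 2. Dusp6, an ERK phosphatase, stood at 27.6 FPKM in the parental culture, 32.6 and 35.4 FPKM in culture 1 and 41.0 FPKM in culture 2.

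Among 13 tested genes of DNA methylation, the de novo enzymes Dnmt3a and Dnmt3b were 2-fold lower in both cultures and Tet2 was 2-fold higher. None of these 3 was called. Of all genes tested, 1.57% were 2-fold lower and 0.945% 2-fold higher in both. Dnmt3a stood at 31.9 FPKM in the parental culture, 12.7 and 12.3 FPKM in culture 1 and 4.77 FPKM in culture 2. Dnmt3l, their catalytically inactive partner, stood at 391 FPKM in the parental culture, 171 and 174 FPKM in culture 1 and 218 FPKM in culture 2. Tet2, which oxidises methylated cytosine, stood at 9.27 FPKM in the parental culture, 31.8 and 31.6 FPKM in culture 1 and 34.1 FPKM in culture 2. Its reporter values were nearly equal and its difference was 1.72 ± 0.21 (limma adjusted p = 0.0839). Dnmt1, the maintenance enzyme, lay between 63.9 and 78.3 FPKM in all 4 libraries. Tet1 lay between 30.3 and 49.8 FPKM, with culture 1 above and culture 2 below the parental culture.

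On the naive side, 4 of 31 tested genes were 2-fold higher in both cultures and 3 were 2-fold lower, and none was called. The shares over all genes tested were 0.945% and 1.57%. By any amount, 17 of the 31 were higher and 8 lower in both, against 3667 and 4243 of all 12277. The median difference was 0.12. Esrrb, a nuclear receptor of the naive network, stood at 60.7 FPKM in the parental culture, 171 and 170 FPKM in culture 1 and 190 FPKM in culture 2. Klf4, a target of LIF and STAT3, stood at 27.4 FPKM in the parental culture, 151 FPKM in each run of culture 1 and 79.0 FPKM in culture 2. Tbx3, a T-box factor that sustains self-renewal, stood at 5.25 FPKM in the parental culture, 23.8 and 24.2 FPKM in culture 1 and 33.8 FPKM in culture 2. In all 3 genes each reporter library was more than 2-fold above the parental library, and their limma adjusted p-values were 0.123, 0.218 and 0.0838.

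Nanog stood at 129 FPKM in the parental culture, 190 and 196 FPKM in culture 1 and 340 FPKM in culture 2. Zfp42, the widely used naive marker Rex1, stood at 296 FPKM in the parental culture, 525 and 546 FPKM in culture 1 and 696 FPKM in culture 2. Both were above the parental level in each library, but less than 2-fold in culture 1. The genes on the other side were Dppa3, Lin28a and Rex2. Dppa3, which protects DNA methylation in the early embryo, stood at 19.5 FPKM in the parental culture, 2.02 and 2.19 FPKM in culture 1 and 5.31 FPKM in culture 2. Lin28a, an RNA-binding protein that blocks let-7 maturation, stood at 157 FPKM in the parental culture, 68.0 and 70.2 FPKM in culture 1 and 65.9 FPKM in culture 2. Members of this list thus stood on both sides of the parental culture.

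The LIF and STAT3 list held 21 tested genes. Of these, 3 were 2-fold higher in both cultures (Tfcp2l1, Klf4 and Gbx2) and 1 was 2-fold lower (Pim2). The shares over all genes tested were 0.945% and 1.57%. By any amount, 14 of the 21 were higher and 5 lower in both, against 3667 and 4243 of all 12277. Tfcp2l1 stood at 9.96 FPKM in the parental culture, 29.7 and 30.7 FPKM in culture 1 and 39.7 FPKM in culture 2. Gbx2, a homeobox gene, stood at 22.7 FPKM in the parental culture, 49.2 and 50.9 FPKM in culture 1 and 50.2 FPKM in culture 2. Socs3, the feedback inhibitor of this pathway, stood at 25.2 FPKM in the parental culture, 92.9 and 95.1 FPKM in culture 1 and 39.8 FPKM in culture 2. It was above the parental level in every reporter library, with a larger difference in culture 1 (1.86) than in culture 2 (0.64). The receptor Lifr and the co-receptor Il6st were also above the parental level in both, at 0.55 and 0.61 in culture 1 but at 0.14 and 0.10 in culture 2.

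In the BMP pathway itself, which the reporter reads, the ligand gene Bmp4 stood at 7.56 FPKM in the parental culture, 21.7 and 22.2 FPKM in culture 1 and 39.0 FPKM in culture 2. Inhbb, the subunit of activin B, stood at 3.04 FPKM in the parental culture, 17.9 and 18.8 FPKM in culture 1 and 15.0 FPKM in culture 2, with a difference of 2.12 ± 0.22 (limma adjusted p = 0.0615). Both were the 2-fold higher members among 21 tested ligands and antagonists. The 2-fold lower members were Lefty1, a secreted Nodal inhibitor, and Htra1, a secreted protease. Of all genes tested, 0.945% were 2-fold higher and 1.57% 2-fold lower in both. Lefty1 stood at 50.4 FPKM in the parental culture, 12.4 and 11.6 FPKM in culture 1 and 23.3 FPKM in culture 2. Nodal, at 40.8 FPKM in the parental culture, 21.8 and 19.8 FPKM in culture 1 and 19.4 FPKM in culture 2, was lower in each but short of 2-fold in culture 1.

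Of 21 tested BMP receptors, SMADs and co-receptors, 0 were 2-fold apart in both cultures either way, 12 were higher and 2 lower in both, and the median difference was 0.23. Over all 12277 genes tested, 3667 were higher and 4243 lower in both. The type I receptor Bmpr1a lay between 10.9 and 13.95 FPKM in all 4 libraries. Its type II partner Bmpr2 lay between 1.55 and 2.59 FPKM. Smad4, the shared SMAD, stood at 19.2 FPKM in the parental culture and between 28.8 and 29.1 FPKM in the reporter libraries. Smad1, which carries the BMP signal, stood at 3.76 FPKM in the parental culture, 8.42 and 8.87 FPKM in culture 1 and 5.34 FPKM in culture 2.

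Of 14 tested BMP targets and feedback genes, 1 was 2-fold higher in both cultures (Tbx3) and 0 were 2-fold lower. The shares over all genes tested were 0.945% and 1.57%. By any amount, 3 of the 14 were higher and 7 lower in both, against 3667 and 4243 of all 12277. Id1, the classical BMP target, stood at 65.8 FPKM in the parental culture, 44.5 and 43.1 FPKM in culture 1 and 78.5 FPKM in culture 2, on both sides of the parental value. Id3 stood at 41.6 FPKM in the parental culture, 9.85 and 10.6 FPKM in culture 1 and 30.9 FPKM in culture 2. Id2 stood at 24.0 FPKM in the parental culture and between 10.8 and 13.2 FPKM in the reporter libraries. Reporter culture 1 was thus below the parental culture for the 3 Id genes and culture 2 for Id2 and Id3. Smad7, a SMAD inhibitor and feedback gene, ran the other way, at 17.9 FPKM in the parental culture, 33.7 and 34.3 FPKM in culture 1 and 47.8 FPKM in culture 2. Dusp9, a phosphatase that BMP is known to hold up in ES cells, stood at 54.6 FPKM in the parental culture, 26.4 and 28.1 FPKM in culture 1 and 18.2 FPKM in culture 2.

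**Figure D4:**
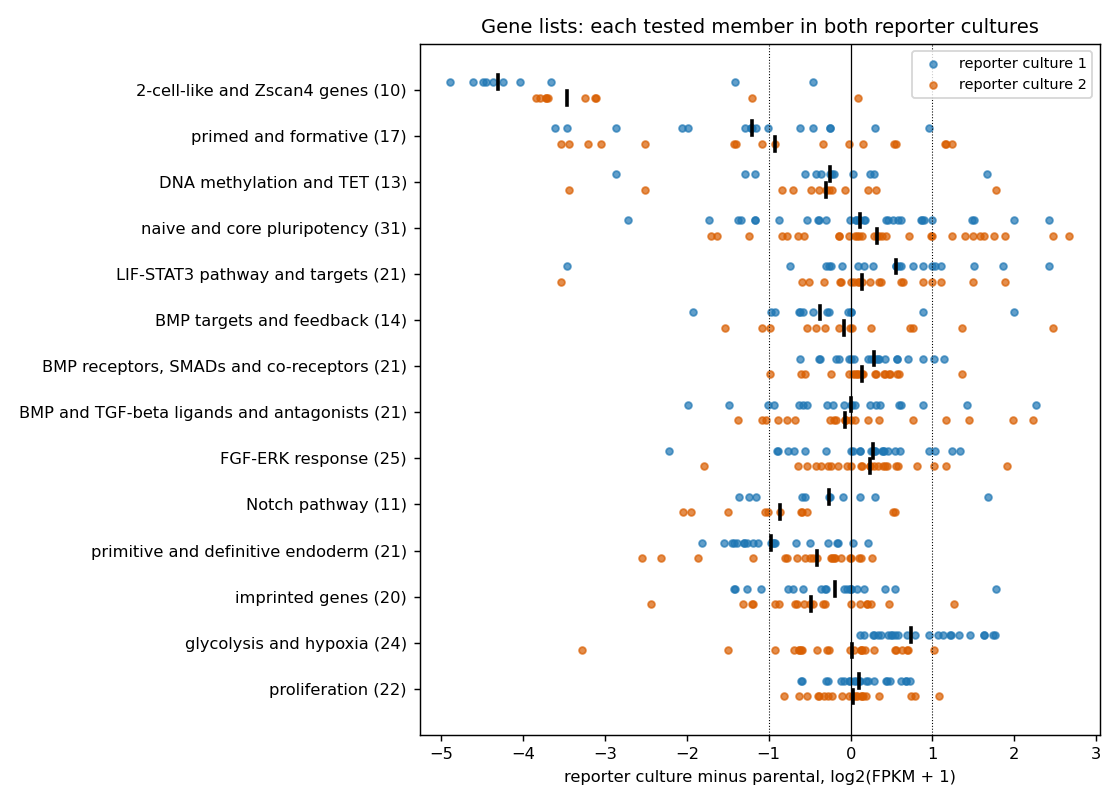
Difference from the parental culture, log2(FPKM + 1), of each tested member of 14 gene lists (number tested in brackets) in reporter culture 1 (blue) and reporter culture 2 (orange), with black bars at the medians. The 2-cell-like list has medians of -4.31 and -3.47, the primed and formative list -1.21 and -0.93, and the glycolysis and hypoxia list 0.74 and 0.02.

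In the FGF and ERK list of 25 tested genes, the feedback inhibitor Spry4 was 2-fold higher in both cultures and the receptor Fgfr2 2-fold lower. Fgfr2 stood at 5.48 FPKM in the parental culture, 0.379 and 0.413 FPKM in culture 1 and 0.874 FPKM in culture 2. In the Notch list 3 of 11 tested genes, the ligands Dll1 and Dll3 and the modifier Lfng, were 2-fold lower in both, and none was 2-fold higher. Dll3 stood at 4.95 FPKM in the parental culture, 1.49 and 1.13 FPKM in culture 1 and 0.545 FPKM in culture 2. In the hedgehog list of 7, the receptor Ptch1 was 2-fold lower in both, at 36.3 FPKM in the parental culture, 11.2 FPKM in each run of culture 1 and 4.57 FPKM in culture 2. No gene of these 3 lists was called. Of all 12277 genes tested, 0.945% were 2-fold higher and 1.57% 2-fold lower in both. By any amount, 11 FGF and ERK genes were higher and 3 lower in both cultures. The counts were 2 and 8 in the Notch list and 2 and 5 in the hedgehog list, against 3667 and 4243 of all genes.

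Endoderm genes stood below the parental level at low values: 3 of 21 tested were 2-fold lower in both cultures (Dab2, Cubn and Amn), 16 were lower in both and 0 higher in both, with a median difference of -0.67 and none called. Over all 12277 genes tested, 4243 were lower and 3667 higher in both, with 1.57% 2-fold lower and 0.945% 2-fold higher. Dab2, an endocytic adaptor, stood at 18.2 FPKM in the parental culture, 5.65 and 6.35 FPKM in culture 1 and 2.27 FPKM in culture 2. In NMuMG cells Dab2 was at 7.33 and 3.94 FPKM in the parental and at 0.339 and 0.280 FPKM in the reporter cultures. Gata4, a defining endoderm factor, stood at 5.76 FPKM in the parental culture, 1.87 and 2.02 FPKM in culture 1 and 4.70 FPKM in culture 2. Gata6 stood at 4.65 FPKM in the parental culture, 1.19 and 1.01 FPKM in culture 1 and 2.58 FPKM in culture 2. The summed level of the list was 333 FPKM in the parental culture, 152 FPKM in culture 1 and 264 FPKM in culture 2. Its part in the other differences was not tested. Of 6 tested genes of mesoderm and primitive streak, 1 was 2-fold higher in both cultures (Cdx1), 0 were 2-fold lower and 0 were called. Cdx1 stood at 0.049 FPKM in the parental culture, 1.46 and 1.31 FPKM in culture 1 and 2.05 FPKM in culture 2. The mesoderm markers T, Mixl1 and Mesp1 were at most 0.334 FPKM in every ES library.

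Imprinted genes were uneven. Grb10, an adaptor that restrains growth signals, stood at 31.2 FPKM in the parental culture, 109 FPKM in each run of culture 1 and 76.1 FPKM in culture 2, and was 1 of 20 tested that was 2-fold higher in both. Peg3, Cdkn1c and Snrpn were 2-fold lower in both. Peg3 was also lower in the NMuMG reporter cultures, at 0.242 and 0.023 FPKM, against 23.6 and 18.3 FPKM in the NMuMG parental cultures. Snrpn stood at 106 FPKM in the parental culture, 38.7 and 39.0 FPKM in culture 1 and 46.2 FPKM in culture 2. H19, which did not pass the filter, stood at 9.82 FPKM in the parental culture, 0.196 and 0.103 FPKM in culture 1 and 0.791 FPKM in culture 2. No imprinted gene was called in the ES comparison. By any amount, 4 of the 20 tested were higher and 11 lower in both cultures, against 3667 and 4243 of all 12277 genes. Of all genes tested, 0.945% were 2-fold higher and 1.57% 2-fold lower in both.

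The other genes at the top of the ranking by the smaller of both shifts were mostly outside these lists. Klhl13, a substrate adaptor of a ubiquitin ligase encoded on the X chromosome, stood at 66.9 FPKM in the parental culture, 3.03 and 2.48 FPKM in culture 1 and 7.50 FPKM in culture 2. Rhox5, an X-linked homeobox gene, stood at 66.1 FPKM in the parental culture, 5.95 and 6.79 FPKM in culture 1 and 8.80 FPKM in culture 2. Both were also lower in NMuMG reporter cultures, Klhl13 at 31.8 and 33.5 FPKM in the parental and 18.1 and 16.6 FPKM in the reporter cultures. Of the 193 shared lower genes, 7 were at least 2-fold lower in both NMuMG reporter cultures too, against 123 of all 12277 genes tested.

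Among the higher genes, Emp1, an epithelial membrane protein gene, stood at 2.69 FPKM in the parental culture, 31.4 and 32.4 FPKM in culture 1 and 18.0 FPKM in culture 2. Cpe, a carboxypeptidase of the secretory pathway, stood at 0.882 FPKM in the parental culture, 8.53 and 9.504 FPKM in culture 1 and 7.50 FPKM in culture 2. Cobl, an actin nucleator, stood at 7.72 FPKM in the parental culture, 40.0 and 41.3 FPKM in culture 1 and 37.5 FPKM in culture 2. The reporter libraries lay close together for Cpe and Cobl and apart for Emp1.

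Triml1, a gene of the tripartite motif family, stood at 7.94 FPKM in the parental culture, 37.5 and 39.6 FPKM in culture 1 and 37.5 FPKM in culture 2. Mras, a RAS-like GTPase, stood at 2.93 FPKM in the parental culture and between 14.5 and 15.5 FPKM in the reporter libraries. Atp2a3, a calcium pump of the endoplasmic reticulum, stood at 1.08 FPKM in the parental culture, 7.46 and 7.22 FPKM in culture 1 and 11.2 FPKM in culture 2. None of these passed the limma threshold, with Cpe the nearest at an adjusted p of 0.0544. The 5 genes ranked above them (Rps27, Atf5, Tti2, Morn2 and Mroh1) were listed at 0 in the parental culture. Rps27 was also at 0 in run 1 of culture 1 and at 201 FPKM in run 2. Of the 21 shared 2-fold genes listed at 0 on one side, 19 (90.5%) overlap the entry of another gene, against 17.5% of all genes tested, so these values do not show expression or its absence. Without symbols listed at 0 in an ES culture, 102 genes were 2-fold higher and 179 lower in both cultures.

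By chromosome, over 7600 genes of at least 5 FPKM, the median difference was 0.33 in culture 1 and 0.31 in culture 2 on chromosome 8, with 70.1% of its 462 genes higher in both cultures against 30.5% of all. The medians of the other chromosomes lay between -0.10 and 0.02. Genes named above that lie on chromosome 8 include Cpe, Triml1, Tti2 and Smad1.

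On some genes the reporter cultures parted. These cultures also differ in library series, so culture and series cannot be told apart in the ES values. Glycolysis and hypoxia genes were higher in culture 1: the median difference of 24 tested genes was 0.74 there and 0.02 in culture 2, and only the glucose transporter Slc2a3 was 2-fold higher in both. Bnip3, a mitophagy gene induced by low oxygen, stood at 40.5 FPKM in the parental culture, 130 and 125 FPKM in culture 1 and 13.7 FPKM in culture 2. Ndrg1, another hypoxia-responsive gene, stood at 3.61 FPKM in the parental culture, 14.7 and 14.5 FPKM in culture 1 and 2.48 FPKM in culture 2. In the NMuMG cultures, the second library series differed from the first by 0.11 and 0.68 for Bnip3 and by -0.61 and 0.00 for Ndrg1. Eno1, a glycolytic enolase, was lower in the later series in both lines, with differences of -3.43 in the ES reporter cultures and of -7.49 and -2.82 in the NMuMG cultures. The -7.49 rests on a value listed at 0 in the second NMuMG parental culture, against 178 FPKM in the first. Such a 0 can be a failed assignment of reads. The part of the library series in these differences was not tested.

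Single metallothionein and heat shock genes were high in culture 2. Mt1, a metal-binding metallothionein, stood at 144 FPKM in the parental culture, 89.9 and 90.9 FPKM in culture 1 and 797 FPKM in culture 2. Hspa1b, an inducible HSP70, stood at 5.04 FPKM in the parental culture, 3.19 and 3.24 FPKM in culture 1 and 30.2 FPKM in culture 2. The heat shock and proteostasis list of 11 tested genes had a median difference of 0.34 in culture 2 and -0.14 in culture 1, with 0 members 2-fold higher in both. Between the NMuMG series the difference was -0.13 and 0.13 for Mt1 and -0.35 and 0.18 for Hspa1b, smaller than the ES difference of 3.12 and 2.89. For Rps29, a ribosomal protein gene, the later series was lower in both lines, with differences of -2.63 in the ES reporter cultures and of -2.96 and -3.53 in the NMuMG cultures. Of 22 tested proliferation genes, 0 were 2-fold apart from the parental culture in both reporter cultures. The replication factor Mcm2 lay between 154 and 159 FPKM in all 4 libraries. The mitotic checkpoint kinase Bub1b stood at 75.2 FPKM in the parental culture, 119 and 122 FPKM in culture 1 and 57.2 FPKM in culture 2, and its NMuMG series differed by 1.73 and -2.12. All 4 tested Y-linked genes were below the parental level in both reporter cultures, with the translation factor Eif2s3y at 40.8 FPKM in the parental culture, 18.5 and 19.5 FPKM in culture 1 and 33.2 FPKM in culture 2. Both reporter cultures were also below the parental level for 4243 of all 12277 genes tested.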

How the data were processed

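Per the labels' protocols, total RNA was extracted with RNeasy columns and made into libraries with the NEBNext Ultra kit. Per the submitters' processing notes, base calls came from bcl2fastq 1.8.4 and the tools named are TopHat and Cufflinks with the mm10 build, in versions not given in the sources used here. The authors deposited FPKM per gene, used as deposited; read depth is not given, so precision comes from the spread between replicates. Entries of 1 symbol were summed, giving 23355 symbols; Rn45s and Tpm3, which failed in a library, were left out. The technical runs were averaged as 1 replicate. Differences are on log2(FPKM + 1), which understates changes of low genes. limma 3.58.1 (R 4.3.3; variance trend, two-sided, Benjamini-Hochberg) was fitted to 7 replicates in 4 groups, 3 residual degrees of freedom, for symbols of at least 1 FPKM in at least 2 replicates. The spread of the single parental culture is borrowed from the other groups, and p-values measure only the spread between these samples. The procedure was tested on simulated data. In 3 deposited columns of NIH3T3 values the sample could not be told from the column name, and NIH3T3 was not used here. Deposited gene starts count from 0 (79.2% of 6882 plus-strand symbols equal the RefSeq start minus 1). Promoter windows come from RefSeq, with 75 of 116 higher and 123 of 193 lower genes matched.

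Named genes are the markers Zscan4d, Pim2 and Gadd45g, the 12 highest and 12 lowest by the smaller shift (at least 5 FPKM in the higher group; no short RNAs, gene models or histones), list members 2-fold apart or called with up to 4 others a list, and up to 5 genes each way that differ between lines. Not all list members that meet this rule are named in the text, and some lists that were counted are not reported. Members and lists were chosen with earlier results of these data known. Alternatives covered the pseudocount, filters, scaling, each technical run, the series term and each replicate left out. The filter of 1 FPKM in at least 1 replicate and the count without symbols listed at 0 were chosen after seeing the data.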

Additional observations from a re-analysis of the deposited data

Results flagged for a closer look

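The reporter difference of 2 genes differed between ES and NMuMG cells by a test of the difference itself (limma, adjusted p = 0.0486 for both). Serpinh1, a collagen chaperone, had a difference between lines of 4.64 ± 0.31 (SE, log2 scale): it stood at 46.7 FPKM in the ES parental culture and at 22.0, 23.5 and 30.1 FPKM in the ES reporter libraries, but at 61.1 and 56.4 FPKM in the NMuMG parental and 0.339 and 0.396 FPKM in the NMuMG reporter cultures. Axl, a receptor tyrosine kinase, had a difference of 4.24 ± 0.26, with 0.213 to 0.375 FPKM in every ES library against 28.0 and 27.4 FPKM in the NMuMG parental and 0.488 and 0.413 FPKM in the NMuMG reporter cultures. With the library series as a replicate block, and with quantile normalization, this comparison called 0 genes, so neither call holds there. In both genes the larger change was in the NMuMG cultures. The third gene that passed that test, 1110001A16Rik, has no described function here and is given as a symbol only.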

How the results depend on the processing

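The limma count of 0 higher and 12 lower genes moved with most settings, and the cause was not tested. It was 7 and 6 with a pseudocount of 0.1, 47 and 178 with no filter on low values, 18 and 105 with 1 FPKM in at least 1 replicate, 2 and 15 after rescaling without Mir and Snor symbols, 1 and 14 with technical run 1 alone, and 0 and 11 with run 2 alone. It was 0 and 0 with quantile normalization and with ES replicates alone, where 1 residual pair sets the spread. With the library series as a replicate block it was 0 higher and 0 lower. Leaving out 1 replicate gave 0 to 71 higher and 0 to 130 lower. The 12 genes stayed lower in every setting, which their 2-fold shift in both cultures and the shared parental culture largely fixed in advance. Replicate numbers coincide with library series: the differences between replicates 1 and 2 of the groups correlated over genes at 0.275 to 0.366, so the block is read as a series term.

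For the reporter difference in ES against that in NMuMG cells, 2 genes were higher and 1 lower. The count was 15 and 7 with a pseudocount of 0.1, 46 and 130 with no filter, 7 and 49 with 1 FPKM in at least 1 replicate, and 0 and 0 with quantile normalization and with the replicate block. Lower calls were 3 after rescaling and with run 1 alone and 0 with run 2 alone. Leaving out 1 replicate gave 0 to 87 higher and 0 to 114 lower. The ES difference of Axl, at -0.07, turned to 0.018 with quantile normalization and to 0.006 without reporter culture 2, and was -0.139 without reporter culture 1.

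The genes 2-fold apart in both cultures, 116 higher and 193 lower, became 251 and 360 with a pseudocount of 0.1, 440 and 531 at 1.5-fold, and 24 and 47 at 3-fold. The lower count was 299 with no filter and with 1 FPKM in at least 1 replicate, which add genes that are on in the parental culture alone. A single reporter culture gave 305 to 314 higher and 388 to 468 lower.

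The median of chromosome 8 was 0.3022 with a minimum of 1 FPKM, against 0.32. Other chromosomes moved within a narrow range. With a minimum of 1 FPKM, chromosomes 1, 13, 16 and X had medians of -0.033, -0.0162, -0.0482 and -0.1128. With a minimum of 20 FPKM, chromosomes 1, 14, 16, 19 and X had -0.0268, -0.0316, -0.0686, -0.1188 and -0.0717. With quantile normalization, chromosomes 1, 3, 4, 6, 9 and 10 had -0.0142, -0.0049, -0.0101, 0.0403, 0.0332 and -0.039, chromosomes 12, 13, 14 and 15 had -0.0228, 0.0394, 0.0307 and 0.011, and chromosomes 16, 18 and X had -0.0144, 0.034 and -0.0679.

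Over 71 named genes and their alternatives, 868 values kept their direction and side of the threshold, 100 passed it newly, 94 no longer passed it and 2 reversed. A single parental culture and unknown read depth limit every value.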
